A study of Mus musculus with 8 samples.

Results

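The 9 genes described here encode proteins of the retinal pigment epithelium (RPE) and of the visual cycle: Rpe65, Rgr, Rlbp1, Lrat, Rrh, Ttr, Dct, Tyrp1 and Best1. They were taken by name, with every probe set that the platform annotation assigns to them, which gave 15 probe sets of the 45037 tested and 9 genes of the 18193 measured. Ttr had 4 probe sets, Tyrp1 had 3, Lrat had 2, and the other 6 genes had 1 each. Their values were followed over 8 mouse retina arrays. Of these, 3 were labelled homozygous for a null allele of Nxnl1 (ko/ko), 2 heterozygous (ko/wt) and 3 wild type (wt/wt). All mice were of the strain labelled BALB/c AJ, were kept under a daily cycle of light and dark, and were killed at postnatal day 40. Nxnl1 is the photoreceptor gene of rod-derived cone viability factor, which resembles thioredoxin. How the null allele was made, and whether other strains entered the cross, is not given in the sources used here. The design text speaks of 9 samples, of which 8 were analysed here. No label says whether the replicates were separate mice. The p-values therefore reflect variation among these samples only, and that variation may be technical.

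The RPE is a single layer of pigmented cells that lies against the photoreceptor outer segments. It takes up retinol, converts the bleached all-trans form of the chromophore back to the 11-cis form and returns it to the photoreceptors. Lrat esterifies retinol, Rpe65 isomerises the ester to 11-cis retinol, Rlbp1 (CRALBP) binds the 11-cis retinoid, and Rgr and Rrh (peropsin) are opsins of the RPE. Rlbp1 and Rgr are also made in Müller glia. Ttr carries thyroxine and, with retinol-binding protein, retinol, and is abundant in the RPE and the choroid plexus. Dct and Tyrp1 are enzymes of melanin synthesis, active in the RPE and in melanocytes of the choroid and the iris. Best1 is a chloride channel of the basolateral RPE membrane. BALB/c mice are albino because they lack working tyrosinase, the enzyme upstream of Dct and Tyrp1.

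The labels describe the tissue as retina from which the RPE had been dissected away. Signal of several of these genes was nonetheless well above the middle of the scale on every array. Rpe65 lay between 9.16 and 10.48 on the log2 scale, against array medians between 6.11 and 6.21 over all probe sets, while Best1, at 6.46 to 6.79, lay not far above those medians. On this scale a difference of 1 is a 2-fold difference. In bulk tissue, fewer cells of a type and less RNA per cell cannot be told apart.

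Promoters of 6 of the genes are shown because 4 of them (Rpe65, Rgr, Dct and Tyrp1) had levels that moved together from array to array, while 2 (Rrh and Best1) did not follow them closely. Each line holds the 250 bases before the annotated start of the gene in the RefSeq promoter table of build GRCm38.p6, 5′ to 3′ on the strand of the gene. Capitals mark matches on either strand to a pair of motifs. The first is CATGTG, which reads as CACATG when it lies on the opposite strand, a core recognised by Mitf, a regulator of pigment cells. The second is TAATCC, which reads as GGATTA when it lies on the opposite strand, a core recognised by the homeodomain protein Otx2. No match of one motif overlapped a match of the other. Rpe65 lies on the plus strand at chr3:159598931-159599180, Rgr on the minus strand at chr14:37049015-37049264, Dct on the minus strand at chr14:118052247-118052496, Tyrp1 on the plus strand at chr4:80833963-80834212, Rrh on the minus strand at chr3:129822506-129822755 and Best1 on the minus strand at chr19:10001634-10001883.
Rpe65: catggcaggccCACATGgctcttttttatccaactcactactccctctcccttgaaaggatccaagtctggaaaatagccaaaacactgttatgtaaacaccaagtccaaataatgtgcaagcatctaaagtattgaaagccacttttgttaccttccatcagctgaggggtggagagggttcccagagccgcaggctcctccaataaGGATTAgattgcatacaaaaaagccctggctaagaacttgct
Rgr: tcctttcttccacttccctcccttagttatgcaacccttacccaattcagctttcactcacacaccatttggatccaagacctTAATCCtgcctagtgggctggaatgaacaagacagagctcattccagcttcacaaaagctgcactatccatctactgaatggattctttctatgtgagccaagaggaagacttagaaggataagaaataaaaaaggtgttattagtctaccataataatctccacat
Dct: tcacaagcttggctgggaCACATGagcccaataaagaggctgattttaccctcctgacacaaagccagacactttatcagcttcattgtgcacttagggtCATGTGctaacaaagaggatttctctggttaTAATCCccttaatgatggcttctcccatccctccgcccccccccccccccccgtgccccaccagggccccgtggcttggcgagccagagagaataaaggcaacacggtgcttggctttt
Tyrp1: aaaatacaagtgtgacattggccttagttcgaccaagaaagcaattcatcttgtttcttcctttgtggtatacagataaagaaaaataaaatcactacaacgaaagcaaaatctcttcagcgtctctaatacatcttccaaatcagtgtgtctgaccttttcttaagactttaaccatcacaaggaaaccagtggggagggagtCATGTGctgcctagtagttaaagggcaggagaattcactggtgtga
Rrh: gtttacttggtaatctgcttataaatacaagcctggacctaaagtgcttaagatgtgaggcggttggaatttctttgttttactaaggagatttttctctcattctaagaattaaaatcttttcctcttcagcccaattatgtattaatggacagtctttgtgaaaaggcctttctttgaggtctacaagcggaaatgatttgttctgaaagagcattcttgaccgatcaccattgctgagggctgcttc
Best1: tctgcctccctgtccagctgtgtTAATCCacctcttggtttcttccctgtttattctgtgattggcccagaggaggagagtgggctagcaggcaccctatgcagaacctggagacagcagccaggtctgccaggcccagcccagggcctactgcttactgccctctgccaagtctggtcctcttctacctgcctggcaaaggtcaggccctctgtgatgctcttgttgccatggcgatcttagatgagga

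Dct held CATGTG 2 times and TAATCC 1 time, and Rpe65 held each of them 1 time. Rgr and Best1 held TAATCC alone, Tyrp1 held CATGTG alone, and Rrh held neither within these 250 bases. The promoters of Rlbp1 and Lrat were searched but are not shown. Rlbp1 held CATGTG 1 time, and Lrat held neither motif. The brighter Lrat probe set also moved with Rpe65 over the arrays (Pearson r = 0.806), so genes that moved together did not all hold a motif. Among the 8 members whose promoters were searched, 4 held CATGTG and 4 held TAATCC. Of the 32851 promoters in the table, 12.3% held CATGTG and 6.25% held TAATCC on either strand. A match is a description of the letters and not of binding.

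The targeted gene did not follow the labels on 2 arrays. Nxnl1 (probe set 1425696_at) read 6.13, 8.76 and 6.13 in the 3 arrays of the homozygous label (replicates 1, 2 and 3), while the heterozygous replicates 1 and 2 had 8.65 and 6.75, against 9.22, 8.87 and 8.65 in the wild-type replicates. Replicate 2 of the homozygous label thus lay within the wild-type values, and replicate 2 of the heterozygous label lay nearer to homozygous 1 and 3. The labels were kept, and each direction below rests on them. The difference between the 5′ and 3′ probe sets of the actin control ran from -1.81 to -0.69 and was lowest on the arrays labelled wild type 1 and homozygous 1. Pairs of arrays correlated at 0.979 to 0.996 over all probe sets.

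Rpe65, the isomerase of the visual cycle, read 10.04, 10.01 and 9.16 in homozygous retinas, and 9.25 and 9.52 in heterozygous retinas, against 10.20, 10.48 and 9.69 in wild-type retinas. Homozygous array 3 was the lowest of the 8 and wild-type array 2 the highest, a 2.49-fold span. Rgr read 10.55, 10.37 and 9.63 in homozygous retinas, and 9.83 and 9.92 in heterozygous retinas, against 10.74, 10.71 and 10.20 in wild-type retinas. Homozygous array 3 was again the lowest, and both heterozygous arrays lay below every wild-type array. For both genes the homozygous and wild-type groups overlapped.

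The other retinoid-handling genes spanned less or were measured less clearly. Rlbp1 was at 11.96, 12.00 and 11.81 in homozygous retinas, and 11.95 and 11.86 in heterozygous retinas, against 11.98, 12.16 and 12.05 in wild-type retinas, a span of 1.28-fold over all arrays. Rrh was at 9.11, 9.08 and 8.70 in homozygous retinas, and 8.91 and 9.05 in heterozygous retinas, against 8.90, 9.10 and 9.15 in wild-type retinas. The low value of Rrh was homozygous array 3, and the remaining 7 arrays lay close together with no separation of the groups. Lrat had 2 probe sets that disagreed. The brighter, 1444487_at, read 7.97, 7.25 and 7.03 in homozygous retinas, and 6.71 and 7.14 in heterozygous retinas, against 7.72, 7.65 and 6.97 in wild-type retinas. The dimmer, 1421345_at, stayed between 3.49 and 3.92 on all arrays, near the lower end of the scale. No detection calls were used here.

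Ttr, the thyroxine and retinol carrier, had 1 pattern in its 4 probe sets. The brightest of them, 1454608_x_at, read 12.86, 12.71 and 11.99 in homozygous retinas, and 12.15 and 12.22 in heterozygous retinas, against 13.11, 13.03 and 12.42 in wild-type retinas. In all 4 probe sets homozygous array 3 was the lowest array, the heterozygous arrays came next, and the 4 highest were homozygous 1 and 2 and wild type 1 and 2. The widest span among them was 2.51-fold, for 1455913_x_at.

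Of the melanin enzymes, Dct read 8.41, 8.57 and 8.27 in homozygous retinas, and 8.06 and 7.87 in heterozygous retinas, against 9.03, 9.03 and 8.23 in wild-type retinas. Its 2 heterozygous arrays were the lowest of the 8, and wild-type array 3 lay just below the homozygous arrays, away from wild type 1 and 2. Tyrp1 (1415861_at) read 7.54, 7.23 and 7.14 in homozygous retinas, and 6.75 and 7.00 in heterozygous retinas, against 7.70, 7.72 and 6.86 in wild-type retinas. Here wild-type array 3 fell between the heterozygous arrays. Of its other probe sets, 1415862_at ranged from 6.66 to 7.38 and 1439409_x_at from 6.17 to 7.39, each with heterozygous array 1 lowest.

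Best1, the chloride channel, was the exception among the genes. It read 6.69, 6.79 and 6.57 in homozygous retinas, and 6.62 and 6.57 in heterozygous retinas, against 6.50, 6.46 and 6.60 in wild-type retinas. Its whole span was 1.26-fold, and its 2 lowest arrays, wild type 1 and wild type 2, were those on which Rpe65 was highest.

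**Figure D1:**
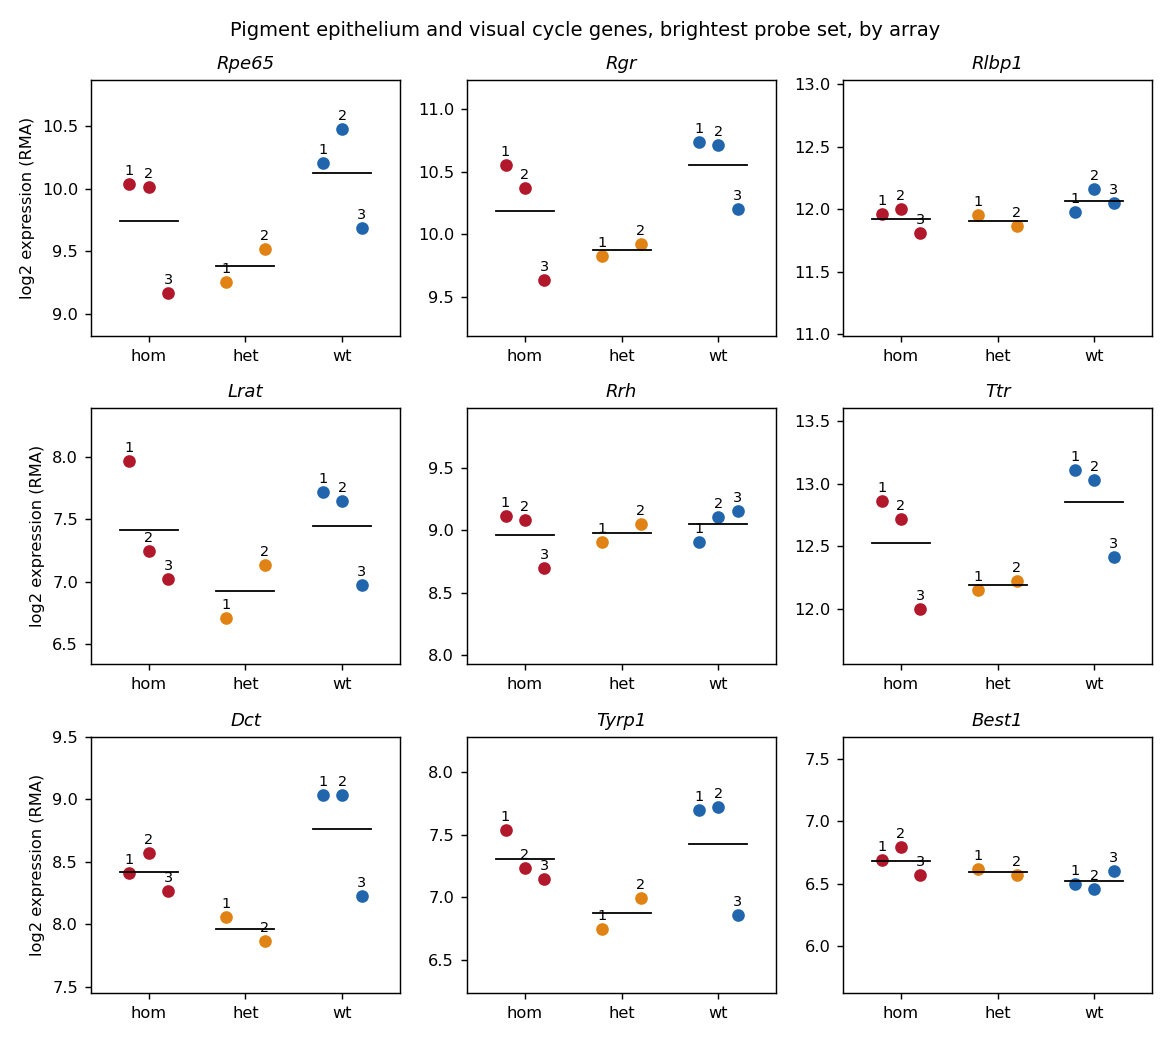
Log2 expression (RMA, vertical axis) of the brightest probe set of each of the 9 genes on the arrays labelled homozygous (hom, n = 3), heterozygous (het, n = 2) and wild type (wt, n = 3); points are arrays with their replicate number, the line is the group mean, and every panel spans about the same log2 range. Homozygous array 3 and wild-type array 3 sit below the other arrays of their group for Rpe65, Rgr, Ttr and Lrat, and Rlbp1, Rrh and Best1 vary little.

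The group means followed 1 order in 7 of the 9 genes, taking the brightest probe set of each, with wild type highest, homozygous next and heterozygous lowest. Rrh had heterozygous just above homozygous, and Best1 had homozygous highest and wild type lowest. Rpe65 averaged 9.74 ± 0.50 in homozygous (SD, n = 3) and 9.38 ± 0.19 in heterozygous (n = 2) retinas, against 10.12 ± 0.40 in wild-type retinas (n = 3). Dct averaged 8.42 ± 0.15 in homozygous and 7.96 ± 0.13 in heterozygous retinas, against 8.76 ± 0.47 in wild-type retinas, with the same n. Between neighbours in this order no adjusted p passed 0.05 by limma. Wild type and homozygous overlapped for all 7 genes, and homozygous and heterozygous overlapped for all but Dct and Tyrp1.

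Whether loss of Nxnl1 changed these genes is the question of homozygous against wild type. Of the 15 probe sets, 13 were lower in homozygous retinas, with a median log2 difference of -0.21, while over all probe sets 47.9% were lower and the median was 0.0054. None of the 15 passed the adjusted threshold in limma's moderated test (0% of all probe sets did), and none had an unadjusted p under 0.05, where 0.377% of all probe sets were lower and 0.535% higher at that level. All 15 had overlapping groups, against 1.84% of all probe sets lower and 2.63% higher without overlap. Rpe65 differed by -0.38 (SE 0.27, unadjusted p = 0.197 by limma, adjusted p = 0.9999), with a 95% interval from -1.01 to 0.24. Dct differed by -0.35 (SE 0.21), Rgr by -0.37 (SE 0.24) and Best1 by 0.16 (SE 0.09), the last with an interval from -0.05 to 0.38. These intervals hold both 0 and differences of the size of the gaps between arrays of a group. Without wild-type array 3, 8 of the 15 were lower without overlap, against 4.61% of all probe sets with the same arrays, and their median difference was -0.40. Without homozygous array 3 the median of the 15 was -0.08. Without the 2 arrays whose Nxnl1 went against the label, 13 probe sets were lower and 2 had no overlap, against 6.93% of all probe sets with those arrays.

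Heterozygous against wild type gave the widest gaps. Of the 15 probe sets, 13 were again lower, with a median difference of -0.55, against 49.4% and 0.0018 over all probe sets. In 10 of the 15, which belong to Rpe65, Rgr, Rlbp1, Ttr, Dct and Tyrp1, both heterozygous arrays lay below all wild-type arrays, against 7.2% of all probe sets. In 1 of the 15, the dimmer Lrat probe set, they lay above all of them, against 7.03%. With each gene read from its brightest probe set alone, 5 of the 9 genes lay below without overlap, against 8.03% of all genes. At an unadjusted p under 0.05, 7 of 15 were lower and none higher, against 0.635% lower and 0.511% higher over all probe sets. Tests without any difference would put a share of 0.05 under that level. Unadjusted p-values in these comparisons therefore need not hold their nominal rate. None passed the adjusted threshold (0% of all probe sets did). Dct had the smallest unadjusted p of the members, with a difference of -0.80 (SE 0.24, 95% interval -1.35 to -0.25), or 1.74-fold lower in heterozygous retinas, at an unadjusted p = 0.00988 and an adjusted p = 0.9999 by limma. Rpe65 differed by -0.74 (SE 0.31, unadjusted p = 0.0411 by limma), Rgr by -0.68 (SE 0.27, 0.0377) and Ttr by -0.67 (SE 0.28, 0.0456).

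Of the Tyrp1 probe sets, 1439409_x_at differed by -0.67 (SE 0.23) and the brightest, 1415861_at, by -0.55 (SE 0.26) with overlapping groups. Rlbp1 differed by -0.16 (SE 0.11) and Rrh by -0.07 (SE 0.15). With 2 arrays against 3, an exact permutation test cannot give a two-sided p under 0.2, the value it gave for Rpe65, Rgr, Ttr and Dct. Without the 2 arrays in doubt, 13 of the 15 were still lower and 12 had no overlap, with 1 heterozygous array left, against 20.2% of all probe sets with those arrays, and Dct differed by -0.71 and Rpe65 by -0.87. Both comparisons use the same wild-type arrays, so their signs are not independent of each other. The members were chosen with earlier results of these data known, so their counts are a description and not separate support.

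Homozygous against heterozygous ran the other way, with 13 of 15 probe sets higher in homozygous retinas and a median difference of 0.31. Over all probe sets 24088 of 45037 were higher and the median was 0.011. Each difference here follows from the differences of the same probe set from wild type, so its direction is not a further result. In 3 of the 15 every homozygous array lay above both heterozygous arrays, against 6.75% of all probe sets, and none lay below, against 5.68%. These were Dct, with a difference of 0.45 (SE 0.24), and the Tyrp1 probe sets 1415861_at (0.43, SE 0.26) and 1439409_x_at (0.45, SE 0.23). No probe set of the 15 had an unadjusted p under 0.05, where 0.537% of all probe sets were higher and 0.362% lower, or passed the adjusted threshold (0%). With each array weighted by its agreement with its group, 8 of the 15 were lower in homozygous retinas.

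**Figure D2:**
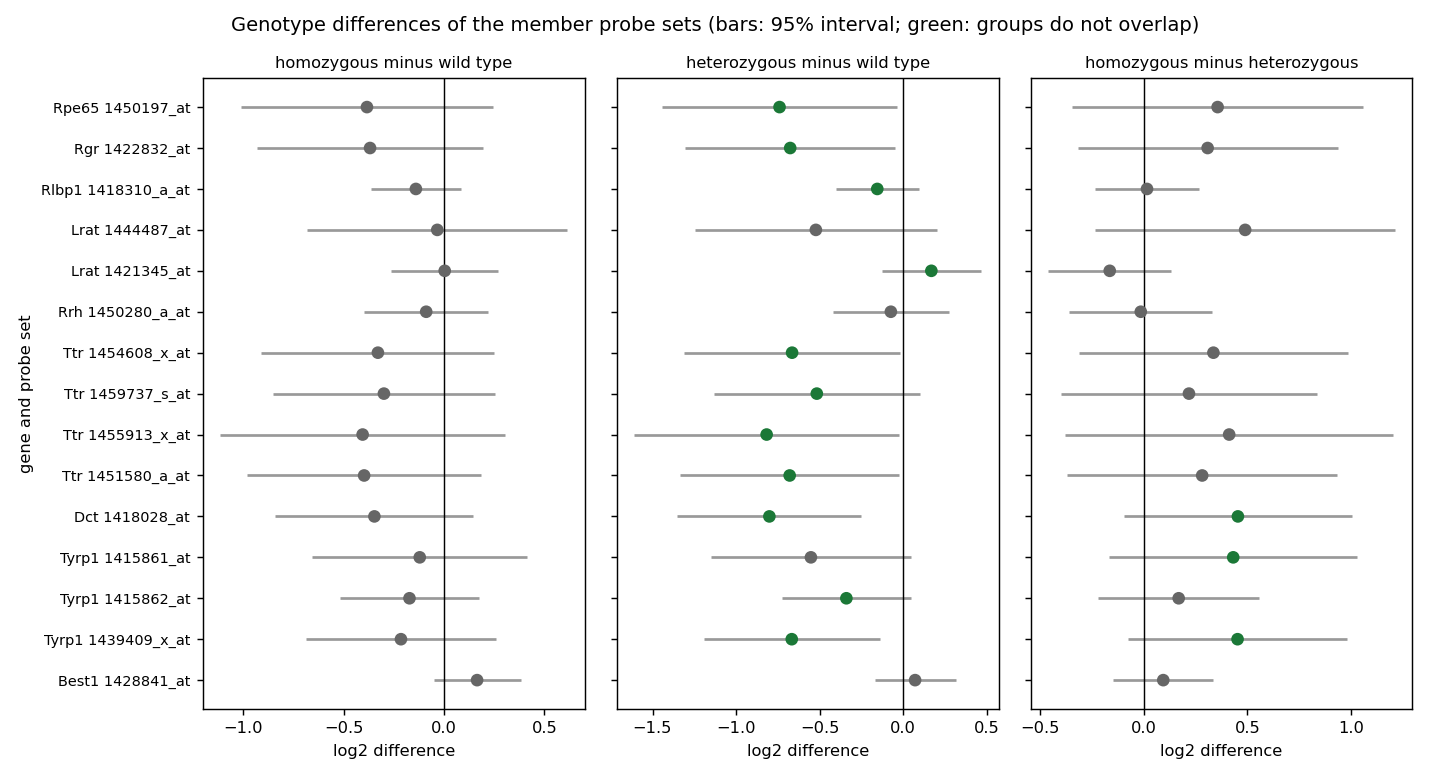
Log2 difference (horizontal axis) of each of the 15 probe sets in 3 comparisons (homozygous against wild type, heterozygous against wild type, and homozygous against heterozygous, each as first minus second), with the 95% interval of limma's moderated test; green marks probe sets whose groups do not overlap. The heterozygous minus wild-type panel holds 11 green points, 10 of them below 0, and the homozygous minus wild-type panel holds none.

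Arrays of 1 genotype group also stood apart from each other. In 10 of the 15 probe sets the 4 highest arrays were homozygous 1 and 2 and wild type 1 and 2, and in 9 the 3 lowest were homozygous 3 and both heterozygous arrays. Within the homozygous group, the mean of arrays 1 and 2 exceeded array 3 by 0.86 for Rpe65, 0.83 for Rgr, 0.58 for Lrat and 0.22 for Dct. Within wild type, the mean of arrays 1 and 2 exceeded array 3 by 0.65 for Rpe65, 0.53 for Rgr, 0.81 for Dct and 0.71 for Lrat. Each of these gaps is larger in size than the homozygous minus wild-type difference of the same gene, except the homozygous gap of Dct, which is smaller. The 2 heterozygous arrays differed by 0.27 for Rpe65, 0.10 for Rgr and 0.19 for Dct.

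**Figure D3:**
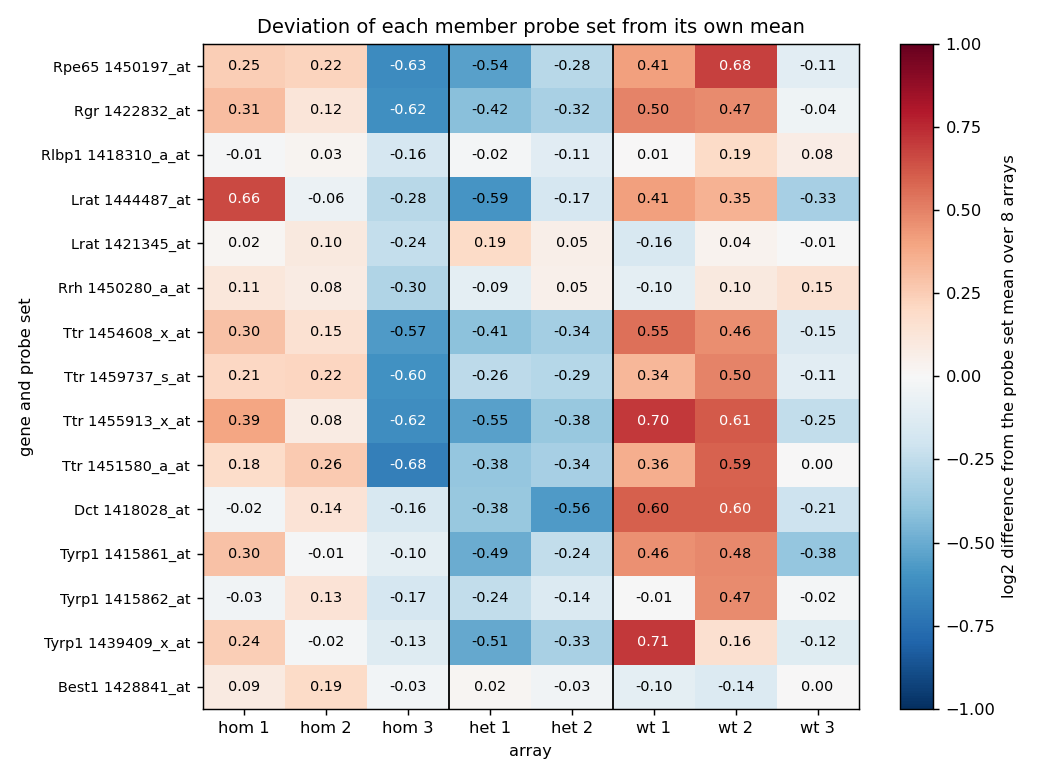
Deviation of each of the 15 probe sets (rows, gene and probe set) from its own mean over the 8 arrays (columns), in log2 units with the value written in each cell; red is above and blue below the mean. Rpe65, Rgr, Ttr, Dct and Tyrp1 are red on homozygous 1 and 2 and wild type 1 and 2 in most cells and blue on homozygous 3 and both heterozygous arrays, while Best1 and the dimmer Lrat probe set do not share this.

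How closely the genes moved together was measured against Rpe65 over the 8 arrays, with exact two-sided permutation tests and Benjamini-Hochberg adjustment over 20 relations. Rgr followed Rpe65 with a Pearson r of 0.973 (exact p = 0.000174, adjusted 0.00165; Spearman rho 0.976, exact p = 0.000397, adjusted 0.00198). The 4 Ttr probe sets gave r from 0.959 to 0.981. Dct gave r = 0.839 (exact p = 0.0105, adjusted 0.0300) and rho = 0.810 (exact p = 0.0218, adjusted 0.0484), and Tyrp1 1415861_at r = 0.836 (exact p = 0.0149, adjusted 0.0372) and rho = 0.833 (exact p = 0.0154, adjusted 0.0384). Lrat 1444487_at gave r = 0.806 (exact p = 0.0200, adjusted 0.0400) and rho = 0.786 (exact p = 0.0279, adjusted 0.0508).

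Leaving out the 2 arrays farthest from the median of Rpe65, homozygous 3 and wild type 2, left r at 0.972 for Rgr, 0.968 for Ttr 1454608_x_at, 0.867 for Dct and 0.914 for Tyrp1 1415861_at. Rlbp1 gave r = 0.770 (exact p = 0.0224, adjusted 0.0407) and rho = 0.762 (exact p = 0.0368, adjusted 0.0613), and r fell to 0.347 without those 2 arrays, so its relation rests on them. Rrh at 0.571 (exact p = 0.137) and Best1 at -0.151 (exact p = 0.724) did not pass. After each value was set against its group mean, so that only variation within genotypes was left, r was 0.952 for Rgr, 0.944 for Ttr and 0.692 for Dct. In all, 9 of the 14 other probe sets had r of at least 0.8 with Rpe65, against 0.675% of the 45037 probe sets, whose median r was 0.0076. They belong to only 5 of the 8 other genes, since probe sets of Ttr and of Tyrp1 measure the same gene more than once. Arrays share their normalization. The genes were chosen together for their tissue, with earlier results of these data known, so these p-values and counts are not separate support.

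**Figure D4:**
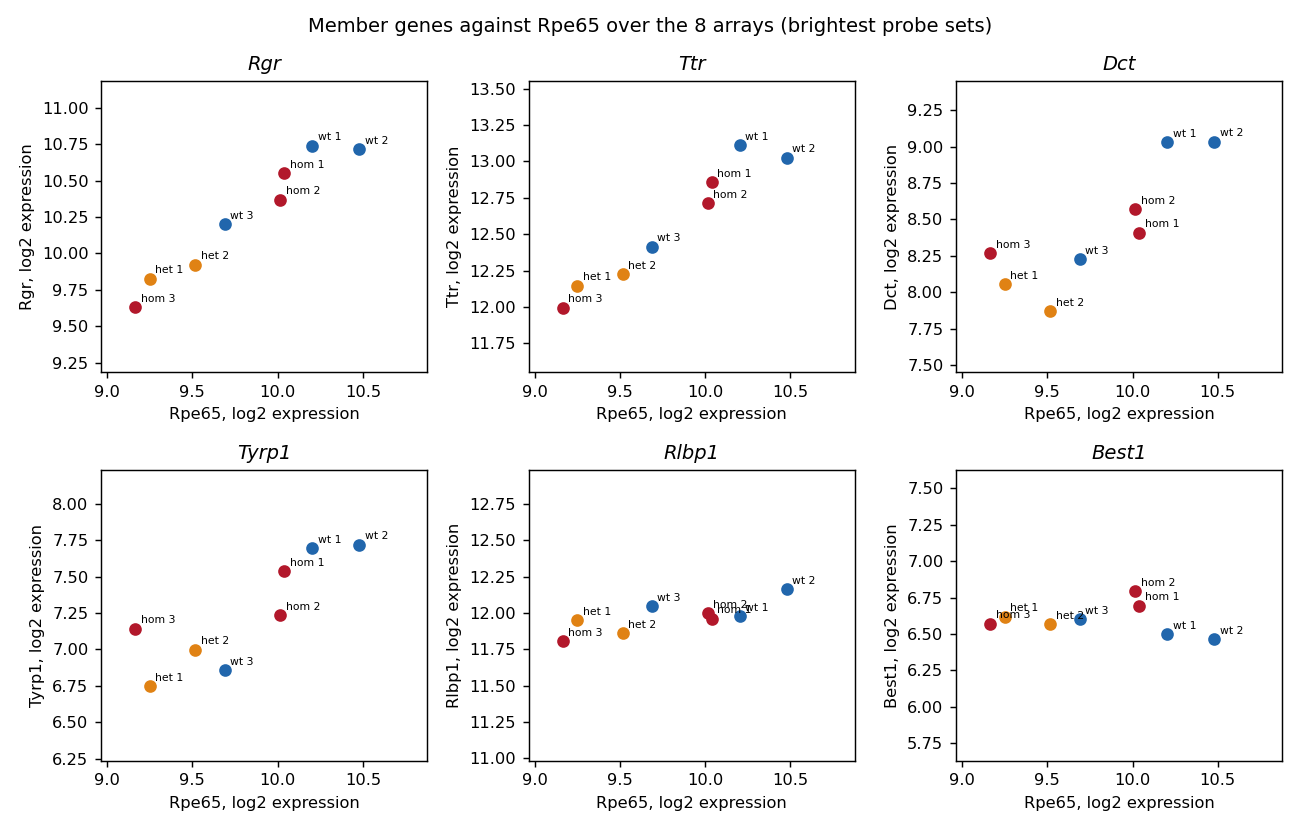
Log2 expression of Rgr, Ttr, Dct, Tyrp1, Rlbp1 and Best1 (vertical axes, brightest probe sets) against Rpe65 (horizontal axes) over the 8 arrays, coloured and labelled by genotype and replicate. Rgr and Ttr lie on a line with Rpe65 (r of 0.973 and 0.968), Dct and Tyrp1 scatter more, Rlbp1 spans little, and Best1 shows no common trend (r of -0.151).

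The genes outside the list whose levels were most like Rpe65, by Pearson r over the 8 arrays among probe sets that spanned at least 1 log2 unit, were Pon1 (0.989), Rdh5 (0.967), Ermn (0.960), Sult1c1 (0.907), Thbs4 (0.895), Slc6a20a (0.891), Dleu7 (0.888), Calml4 (0.865), Fap (0.853) and Car12 (0.826). The 10 most like the brightest Ttr probe set were the same genes in another order, led by Rdh5 (0.998) and Pon1 (0.973). Rdh5 encodes the 11-cis retinol dehydrogenase of the RPE, Thbs4 a matrix protein, Car12 a carbonic anhydrase, Slc6a20a an amino acid transporter and Pon1 a paraoxonase. Rdh5 read 9.30, 9.11 and 8.30 in homozygous retinas, and 8.53 and 8.56 in heterozygous retinas, against 9.54, 9.50 and 8.76 in wild-type retinas. Heterozygous minus wild type came to -0.72 for Rdh5 (SE 0.32), -0.65 for Pon1 (SE 0.31), -0.76 for Ermn (SE 0.29) and -0.93 for Slc6a20a (SE 0.34). They were picked for their likeness, so these values are a description.

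A wider list of other RPE genes, of which 19 of 23 entries were measured and Rdh5, Slc6a20a, Ermn and Krt18 are members, had 15 lower and 4 higher in heterozygous than in wild-type retinas, with a median of -0.29 against -0.0067 over all 18193 genes, and 8 of 19 lay below without overlap (42.1%, against 8.03% of all genes). Rdh5, Slc6a20a and Ermn are among the genes most like Rpe65 above, and the list was chosen with earlier results of these data known. Its counts are therefore not separate support. For homozygous against wild type 12 were lower and 7 higher, with a median of -0.10 against 0.02 over all genes, and none of the 19 passed the adjusted threshold in either comparison. Krt18, a keratin of epithelial cells, differed by 0.63 (SE 0.27) in homozygous against wild-type retinas, the other direction. The groups overlapped, as homozygous array 2, at 10.10, lay within the wild-type values of 9.98 to 10.13. Mertk, the receptor by which the RPE engulfs outer segments, differed by 0.30 (SE 0.16), Rdh10, a retinol dehydrogenase, by -0.20 (SE 0.11) and Ermn by -0.46 (SE 0.26). The remaining melanin genes were split for heterozygous against wild type, with 6 of 11 lower, 5 higher, a median of -0.19 and 0 lower without overlap. In homozygous against wild type 4 were lower and 7 higher, with a median of 0.03. In that comparison Oca2, a melanosome transporter, differed by -0.16, Tyr, tyrosinase, by -0.11, Rab38, which acts in melanosome transport, by 0.13 and Slc45a2, a melanosome transporter, by 0.08.

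Retinoid genes of other cells were counted in the same way. The photoreceptor retinoid genes had a median of 0.08 for homozygous against wild type (2 of 10 lower) and -0.02 for heterozygous against wild type (7 of 10 lower). In homozygous against wild-type retinas, Opn1sw, the short-wave cone opsin, differed by 0.18 and Rdh12, a photoreceptor retinol dehydrogenase, by 0.11. Genes of retinoid binding and storage had 1 of 13 lower and a median of 0.10 for homozygous against wild type, and 9 of 13 lower and a median of -0.04 for heterozygous against wild type. Crabp2, a cellular retinoic acid binding protein, differed by 0.21 and Aldh1a1, a retinaldehyde dehydrogenase, by 0.13 in homozygous against wild-type retinas. For heterozygous against wild type, 0 of the 10 photoreceptor genes and 2 of the 13 others (15.4%) were lower without overlap, against 8.03% of all genes. None of these genes passed the adjusted threshold.

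Marker lists of the other cells that a retina dissection can hold were read beside these results. Müller glia markers had 8 of 16 lower in homozygous against wild-type retinas and 8 of 16 in heterozygous against wild-type retinas, with medians of 0.00045 and 0.00094. In heterozygous against wild-type retinas 4 of the 16 were lower without overlap (25%, against 8.03% of all genes). Among them were Aqp4, a water channel, at -0.26 and Sox9, a transcription factor, at -0.25. The groups overlapped for Clu at 0.08 and Vim at -0.06. None of the 16 passed the adjusted threshold. Their summed level on the linear scale ran from 33112 to 35051 in homozygous and from 32404 to 34844 in heterozygous retinas, against 32919 to 33081 in wild-type retinas. The 14 choroid and sclera markers summed to between 1005 and 1236 in homozygous and 1005 and 1063 in heterozygous retinas, against 860 and 1254 in wild-type retinas, and 5 of them were lower in homozygous and 8 in heterozygous retinas. Their median difference was 0.08 for homozygous and -0.04 for heterozygous against wild type. Of the collagens, Col1a1 differed by -0.19, Col3a1 by -0.35 and Col1a2 by 0.21 in homozygous against wild-type retinas. Col1a1, at 4.50 to 4.85, and Col3a1, at 3.24 to 4.50, lay low on the scale, below the array medians. Tagln, a smooth muscle actin-binding protein, differed by 0.18 in that comparison, without overlap. The 15 lens markers varied most, with summed levels from 1252 to 15600 in homozygous and 1224 to 6467 in heterozygous retinas, against 1190 to 6609 in wild-type retinas, and 2 of 15 were lower in homozygous (median 0.60) and 6 of 15 in heterozygous (median 0.05) against wild-type retinas. The median deviation of the lens list correlated with Rpe65 at 0.137 (exact p = 0.740; 0.469 without homozygous 3 and wild type 2), and the actin 5′ minus 3′ difference at -0.320 (exact p = 0.429; -0.640 without those 2). The Müller glia list gave 0.280 (exact p = 0.492; 0.673 without them) and the choroid and sclera list 0.383 (exact p = 0.355; 0.622 without them). Of the 10 rod markers, 3 were lower in homozygous and 2 in heterozygous against wild-type retinas, each with a median of 0.03, and they stayed within median deviations of -0.06 to 0.10 on all arrays. Iris and ciliary body markers had 5 of 10 lower in both comparisons, with Best2, a bestrophin of the ciliary body, 0.56 higher (SE 0.20) in homozygous than wild-type retinas. Lower without overlap in heterozygous against wild-type retinas were 1 of the 15 lens markers and 0 of the choroid and sclera, iris and ciliary body and rod markers. The part that carried-over tissue of any of these kinds has in the differences was not tested. The summed linear level of the 9 genes ran from 10117 to 15392 in homozygous and from 11073 to 11335 in heterozygous retinas, against 12902 to 17602 in wild-type retinas.

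**Figure D5:**
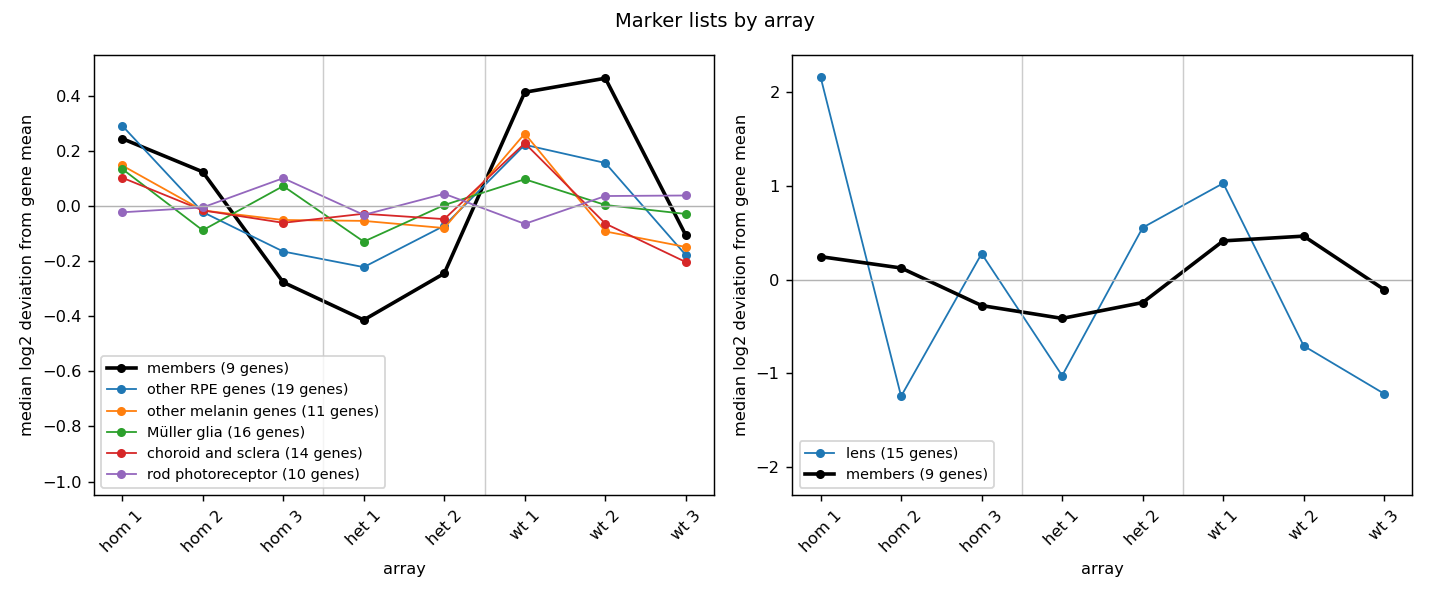
Median log2 deviation of each marker list from the gene means (vertical axis) on the 8 arrays, with the 9 genes in black, and the lens list on its own wider scale at the right. The 9 genes and the list of other RPE genes are both low on homozygous 3, both heterozygous arrays and wild type 3. Lens markers and the list of other RPE genes are both highest on homozygous 1, and the rod markers stay near 0.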

How the data were processed

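Expression was read from the table that the authors deposited, in log2 units. Per the submitters' processing notes it was produced by RMA, whose version is not given in the sources used here. RMA corrects background, equalises the arrays' distributions and summarises probes, so differences are relative to the bulk of transcripts. Array number limits the precision. The 64 control probe sets were left out and 45037 tested. Platform annotation gave 1 symbol to 34945 of them, several to 932 and none to 9160. A gene is read from its probe set with the highest mean unless another is named.

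Group means were fitted to all 8 arrays in 1 model with limma 3.58.1 (R 4.3.3, 5 residual degrees of freedom), with moderated two-sided tests adjusted by Benjamini-Hochberg over 45037 probe sets and a threshold of 0.05. SE is moderated. The fit was tested on simulated data for homozygous minus wild type. It recovered 66% of 100 probe sets shifted by 1 log2 unit and 93% of 100 shifted by 2, and 6 of its 165 calls were false. The simulated noise was normal, independent between arrays and scaled to each probe set's residual SD. Variation shared by probe sets of an array was not simulated. These shares therefore check the code and need not hold for the deposited values or for the members. Correlations used exact permutation tests (SciPy 1.17.1).

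The members, and the 9 other gene lists with 131 entries, were chosen with earlier results of these data known. Named were the members, Nxnl1, up to 4 genes per list with the smallest p for homozygous minus wild type, and the 10 genes most like Rpe65 and the 10 most like Ttr, leaving out uncharacterised names. Not all of these are printed, and the rest are counted only. Values named for Rdh5, Pon1, Ermn and Slc6a20a were chosen after they were seen. Alternatives changed the normalization, the filter, the variance model and the arrays used, and are described in the closing section.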

Additional observations from a re-analysis of the deposited data

How the results depend on the processing

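No member passed the adjusted threshold under any alternative (lowest adjusted p 0.284 over 807 refits of 45 member results, of which 775 kept their direction and 32 turned it). Over all probe sets, 0 passed by limma in each comparison (at an unadjusted p under 0.05, 411 for homozygous against wild type, 516 for heterozygous against wild type and 405 for homozygous against heterozygous). Leaving out each array in turn gave 0 to 1 for homozygous and for heterozygous minus wild type, the 1 being a probe set of no member, 1426438_at, without wild-type array 3. It read 8.95, 9.87 and 8.84 on the homozygous and 9.86 and 8.88 on the heterozygous arrays, against 2.96, 2.90 and 9.24 on wild-type arrays 1, 2 and 3. Leaving out wild-type array 3 selects for such a probe set, so its passing is not a result about the member genes. The arrays on which it was low, wild type 1 and 2, were also those on which Rpe65 was highest. The cause of the low values of 1426438_at, and any link to the member genes, was not tested.

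The count of member probe sets lower without overlap in homozygous against wild-type retinas, 0 of 15, was 0 to 8 when each array was left out in turn (8 without wild-type array 3, against 4.61% of all probe sets), 2 without the arrays whose Nxnl1 goes against the label (6.93% of all), and 2 without the arrays of lowest actin difference (9.96% of all), an alternative chosen after seeing the data. For homozygous against heterozygous it was 0 to 1 when each array was left out in turn, 1 after repeated quantile normalization (5.63% of all) and 1 without the arrays in doubt (34.3% of all). The 2 probe sets below 0 in that comparison became 1 with equal array medians, without dim probe sets and with actin as a covariate, and 8 with array weights, and ran from 1 to 3 when each array was left out in turn.

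With the replicate number as a block (replicate block), 1 of the 15 was below 0 for homozygous against heterozygous, Rrh turned to 0.026, and 0 probe sets passed in any comparison. Same-numbered arrays correlated between -0.25 and 0.62 in their deviations from the group means, with homozygous 1 and wild type 1 highest. Deviations from means of so few arrays depend on each other. Whether the numbers pair the samples, or mark a shared batch, therefore cannot be told from these values. Homozygous minus heterozygous also turned with array weights for Rpe65 (-0.026), Rgr (-0.063), Rlbp1 (-0.061) and Ttr (-0.12, -0.016 and -0.14), for Rlbp1 with repeated quantile normalization (-0.015), without the arrays in doubt (-0.069) and without those of lowest actin difference (-0.0047), and for Rrh with equal medians (0.029) and actin as a covariate (0.042). Homozygous minus wild type turned for the dimmer Lrat probe set with array weights (-0.19), without the arrays in doubt (-0.065) and without those of lowest actin difference (-0.087), and for the brighter one without the arrays in doubt (0.050). When each array was left out in turn, the ranges that crossed 0 were -0.065 to 0.10 and -0.31 to 0.16 for Lrat, -0.16 to 0.044 for Rrh, -0.40 to 0.026 and -0.40 to 0.016 for Tyrp1 in homozygous minus wild type, and -0.030 to 0.073 for Rlbp1 and -0.088 to 0.12 for Rrh in homozygous minus heterozygous. In the cases named, the cause was not tested.

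Values near 3.5 lie near the lower end of the scale. Array weights moved Rpe65 to -1.04 and Rgr to -0.87 in homozygous against wild-type retinas. The heterozygous difference from wild type kept its direction for Rpe65 (-0.96 to -0.56) and Dct (-1.07 to -0.67) when each array was left out in turn.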
